A study of Mus musculus with 4 samples.

Results

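A set of 10 genes of ADP-ribosylation was followed in cultured primary (1°) mouse oligodendroglial cells (OGCs) with and without conditional deletion of Zfp276. The genes were Parp1, Parp2, Parp3, Parp9, Parp10, Parp11, Parp12, Parp14, Dtx3l and Zc3hav1. They were selected by their gene symbol, and each of the 10 symbols occurred once among the 53465 entries of the count tables. All 10 passed the filter on low counts. RNA-Seq was carried out after 3 days of differentiation (3ddiff) on 2 ctrl and 2 Zfp276cko preparations, each pooled from 3 mice aged P2 to P4. Cells of both genotypes carried Zfp276 flox/flox, in which loxP sites flank exons 2 to 5. Zfp276cko cells additionally carried the Sox10::Cre transgene, which recombines under control of Sox10 in the oligodendroglial lineage. Whether other cells of the culture were recombined was not tested. Cells were shaken off mixed glia from forebrain and depleted of microglia before differentiation. A Rosa26stopfloxtdTomato allele served to identify Zfp276cko pups, and whether ctrl cells carry it is not given in the sources used here. The background was a mixture of C3H and C57Bl/6J, and both sexes were used. The study asked which transcripts change when Zfp276 is lost from differentiating cells.

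Enzymes of the PARP family transfer ADP-ribose from NAD to proteins or nucleic acids. Parp1, Parp2 and Parp3 act at DNA breaks and are expressed in most cells, with Parp1 and Parp2 building chains of ADP-ribose and Parp3 adding single units. Parp9, Parp10, Parp11, Parp12, Parp14 and Zc3hav1 (also known as ZAP or Parp13) are known as interferon-inducible genes of antiviral defence. Most of them transfer single ADP-ribose units or none, and Zc3hav1 binds CpG-rich viral RNA through its CCCH zinc fingers. Dtx3l is a ubiquitin ligase of the deltex family and forms a complex with Parp9.

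Of these genes, 3 lie together on chromosome 16 of mm10. Parp14 occupies 35832874 to 35871544 on the minus strand, Dtx3l follows after 54.967 kb at 35926511 to 35939151 on the minus strand, and Parp9 runs from 35938470 to 35972605 on the plus strand. Parp9 and Dtx3l are thus arranged head to head, and their annotated spans overlap over 682 nt, of which 458 nt are exonic in both. The shared exonic bases make up 9.4% of the exons of Parp9 and 8% of those of Dtx3l. Another 3 lie on chromosome 6, namely Zc3hav1 (38305286 to 38354603, minus), Parp12 (39086410 to 39118349, minus) and Parp11 (127446840 to 127494261, plus). Parp10 is found on chromosome 15 (76231174 to 76243441, minus), where it shares 205 exonic nt with Plec on the same strand. Parp1 is on chromosome 1 (180568924 to 180601254, plus), Parp2 on chromosome 14 (50807841 to 50821301, plus) and Parp3 on chromosome 9 (106470322 to 106476949, minus), with 20 exonic nt shared between Parp3 and Rrp9 on the opposite strand. The libraries were stranded, but the strand setting of the counting is not given in the sources used here, so reads from bases shared on opposite strands cannot be assigned with certainty.

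Promoter windows of 250 bases before and 50 after the start were read from RefSeq (GRCm38.p6, the assembly of mm10) for 7 of the 10 genes, with 2 windows for Parp11. Parp9, Parp10 and Parp14 had no entry. Both strands of the 8 windows were searched for an interferon-stimulated response element (ISRE)-type repeat, GAAANNGAAA, and for a palindrome of the interferon-gamma-activated site (GAS) type, TTCNNNGAA. Of all 32851 windows in the reference, 3.44% held the ISRE-type repeat and 8.3% the GAS-type palindrome. Among the windows of the 10 genes, 1 of 8 held either. It belonged to the upstream start of Parp11, where the ISRE-type match TTTCGATTTC, read on the reverse strand, lies from -44 to -35 and the GAS-type match TTCTTGGAA from -37 to -29, so that they overlap. The windows of Dtx3l, the partner of Parp9, and of the constitutive Parp1 held neither set of letters. These windows are shown because Parp11 carries the only matches, the Dtx3l window lies entirely within Parp9, and Parp1 provides a constitutive counterpart. Capitals mark the matches, and each sequence reads 5′ to 3′ on the strand of its gene.
Parp11 upstream start, chr6:127446590-127446889, plus strand: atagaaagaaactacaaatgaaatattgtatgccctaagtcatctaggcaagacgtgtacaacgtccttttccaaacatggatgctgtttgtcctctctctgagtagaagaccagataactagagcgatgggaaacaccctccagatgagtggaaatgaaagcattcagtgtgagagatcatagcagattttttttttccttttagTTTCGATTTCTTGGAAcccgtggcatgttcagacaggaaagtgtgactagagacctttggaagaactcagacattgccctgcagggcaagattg
Dtx3l, chr16:35938978-35939277, minus strand: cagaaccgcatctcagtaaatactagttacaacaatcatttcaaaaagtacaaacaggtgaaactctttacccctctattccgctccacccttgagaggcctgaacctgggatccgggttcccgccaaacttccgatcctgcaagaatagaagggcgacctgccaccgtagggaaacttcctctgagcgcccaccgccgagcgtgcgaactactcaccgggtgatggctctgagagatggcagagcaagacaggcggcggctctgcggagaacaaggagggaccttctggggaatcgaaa
Parp1, chr1:180568641-180568940, plus strand: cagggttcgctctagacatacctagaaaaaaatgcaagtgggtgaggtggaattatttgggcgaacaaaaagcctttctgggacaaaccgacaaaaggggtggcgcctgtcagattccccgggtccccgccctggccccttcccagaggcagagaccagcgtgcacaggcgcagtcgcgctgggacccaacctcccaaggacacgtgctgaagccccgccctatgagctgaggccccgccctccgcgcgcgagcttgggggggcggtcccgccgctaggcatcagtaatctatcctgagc
The GC content was 42% in the upstream window of Parp11, 54.3% in that of Dtx3l and 62% in that of Parp1, and these windows held 5, 17 and 20 CpG dinucleotides. The second Parp11 window had 59% GC and 25 CpG dinucleotides. The window of Parp12 was the richest of the 8, with 73.7% GC and 46 CpG dinucleotides.

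Counted reads per library ranged from 21068322 to 26599809. Values are given as normalized counts, that is counts scaled with TMM factors to the mean library size. Zfp276, the targeted gene, read 1648 and 2230 in the ctrl replicates and 490 and 503 in the Zfp276cko replicates. The Zfp276cko mean was thus 0.256 of the ctrl mean, and the paper describes the deletion as incomplete. The ctrl libraries differed from each other far more than the Zfp276cko libraries, with a relative spread between replicates beyond counting error of 0.354 in ctrl and 0.048 in Zfp276cko cells. Defining markers of oligodendroglia (11 of 11 counted) summed to 14757 and 19570 CPM (counts scaled to library size) in ctrl and to 10142 and 10275 in Zfp276cko cells. Fibroblast and vessel markers summed to 343 in ctrl replicate 1 and to between 11.2 and 16.3 in the other 3 libraries, with Cldn5 at 0 in all. Both ctrl libraries therefore appear with their own values in what follows, and the differences of the 10 genes are also given with either of them left out.

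Each of the 7 interferon-linked genes was higher in Zfp276cko than in ctrl cells without overlap of the libraries, between 2.40-fold for Zc3hav1 and 7.98-fold for Parp9 by the ratio of the means. Of the constitutive genes, Parp3 was 2.36-fold higher, Parp2 was 1.21-fold higher and Parp1 stood at 0.694 of the ctrl mean. Thus 9 of the 10 genes lay above both ctrl libraries, against 26.4% of the 14324 genes whose normalized counts averaged 20 or more. The remaining gene, Parp1, lay below both, as did 24.8% of all genes. Between the lower Zfp276cko and the higher ctrl library, the interferon-linked genes were apart by 2.10-fold (Zc3hav1) to 5.66-fold (Parp9). For Parp3 this gap was 2.31-fold and for Parp2 1.10-fold.

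**Figure D1:**
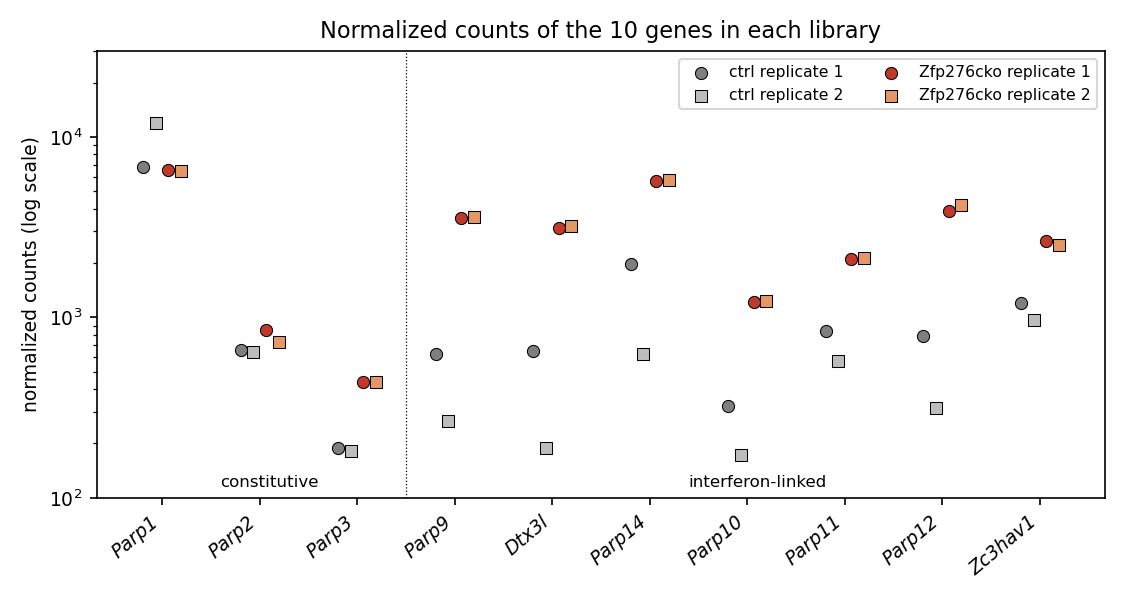
Normalized counts of each gene (logarithmic vertical axis) in the 2 ctrl (grey) and the 2 Zfp276cko libraries (red and orange), with the constitutive genes left of the dotted line. The interferon-linked genes sit higher in both Zfp276cko libraries, the Zfp276cko symbols nearly coincide, and the ctrl symbols are apart by up to 3.44-fold in Dtx3l.

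The differences between genotypes were tested with edgeR's quasi-likelihood test over 15766 genes. A call required a Benjamini-Hochberg adjusted p no larger than 0.05, a log2 fold change of 0.6 or more in either direction and normalized counts that averaged 20 or more. These thresholds follow the methods of the study, which applied them to results of DESeq2 and not of edgeR. At these thresholds 0 of the 10 genes were called, and of all tested genes 0% were called higher and 0% lower. The smallest adjusted p among the 10 was 0.111 (Zc3hav1). When p was left unadjusted and the other thresholds were kept, 8 of the 10 were past the threshold and higher, against 5.11% of all tested genes. These were the 7 interferon-linked genes and Parp3. DESeq2 called the same number, 8, higher at its adjusted p and none of the 10 lower. Over all 14754 genes to which it gave an adjusted p, it called 450 (3.05%) higher and 339 lower. In an exact permutation test, 2 libraries against 2 cannot reach a two-sided p below 0.333. In cultures such as these, more cells of a type and more RNA per cell cannot be told apart.

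Parp9, a macrodomain protein, showed 628 (replicate 1) and 268 (replicate 2) normalized counts in ctrl against 3555 and 3593 in Zfp276cko cells. Every Zfp276cko value was at least 5.66-fold above the higher ctrl value. Mean values of 448 ± 255 for ctrl and 3574 ± 26.7 for Zfp276cko cells (SD, n = 2 each) were obtained, which corresponds to a log2 fold change of 3.00 ± 0.44 (SE, adjusted p = 0.124 with edgeR). Omission of ctrl replicate 1 gave 3.74 and that of ctrl replicate 2 gave 2.49. It was the largest log2 fold change of the 10 genes in this fit. Dtx3l, its ubiquitin ligase partner, had 647 and 188 normalized counts in ctrl against 3116 and 3218 in Zfp276cko cells. Here the ctrl replicates were farther apart than for any other of the 10 genes, at 3.44-fold. The log2 fold change of Dtx3l was 2.93 ± 0.62 (SE, adjusted p = 0.179), and it ranged from 2.28 without ctrl replicate 2 to 4.08 without ctrl replicate 1.

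The partners of the head-to-head pair kept similar proportions in the Zfp276cko libraries. Parp9 had 1.14 and 1.12 times the normalized counts of Dtx3l there, compared with 0.971 in ctrl replicate 1 and 1.43 in ctrl replicate 2. The ratio in Zfp276cko cells thus fell between those of the ctrl replicates. Parp14, which carries macrodomains and a transferase domain and is known for its part in STAT6 signalling, lies next to the pair. It reached 1969 and 623 normalized counts in ctrl against 5702 and 5746 in Zfp276cko cells. The Zfp276cko values were at least 2.90-fold above the ctrl values, the ctrl replicates were 3.16-fold apart, and the adjusted p of Parp14 was the largest of the interferon-linked genes. Its log2 fold change was 2.14 ± 0.58 (SE, adjusted p = 0.229), and 1.53 and 3.20 without ctrl replicates 2 and 1.

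Parp12, a CCCH zinc finger transferase, had 785 and 313 normalized counts in ctrl against 3872 and 4211 in Zfp276cko cells, with a log2 fold change of 2.88 ± 0.48 (SE, adjusted p = 0.139). No overlap between the genotypes was seen, the log2 value was 3.69 or 2.35 when ctrl replicate 1 or 2 was omitted, and the profile was close to that of Parp9. Parp10, a transferase for single ADP-ribose units, had 323 and 172 normalized counts in ctrl against 1222 and 1233 in Zfp276cko cells. The Zfp276cko replicates nearly coincided and lay at least 3.79-fold above the higher ctrl value, with a log2 fold change of 2.31 ± 0.33 (SE, adjusted p = 0.123) that became 2.83 or 1.91 on omission of ctrl replicate 1 or 2. Parp11, another such transferase, had 836 and 575 normalized counts in ctrl against 2099 and 2132 in Zfp276cko cells. On the log2 scale the fold change of 1.58 ± 0.21 (SE, adjusted p = 0.121) was the second lowest of the 7, its ctrl replicates were 1.45-fold apart, and it was 1.88 or 1.33 if ctrl replicate 1 or 2 was omitted.

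Zc3hav1, the RNA-binding antiviral factor, had 1204 and 961 normalized counts in ctrl against 2664 and 2528 in Zfp276cko cells. Its ctrl replicates were the closest of the 7 interferon-linked genes, and the genotypes did not overlap. The means of 1082 ± 172 (SD, n = 2) and 2596 ± 96.4 (SD, n = 2) gave a log2 fold change of 1.26 ± 0.14 (SE, adjusted p = 0.111), the lowest of the 7. It came to 1.43 and 1.09 on omission of ctrl replicates 1 and 2. The interferon-linked genes therefore shared a direction and differed in the size of the difference and the gap between the ctrl replicates. All 7 were higher in ctrl replicate 1 than in ctrl replicate 2, by 1.25-fold for Zc3hav1, 1.45-fold for Parp11, 1.88-fold for Parp10, 2.35-fold for Parp9, 2.51-fold for Parp12, 3.16-fold for Parp14 and 3.44-fold for Dtx3l. The Zfp276cko replicates were at most 1.09-fold apart for the same genes. The median over the 7 log2 fold changes was 2.31, and became 3.20 when ctrl replicate 1 was left out and 1.91 when ctrl replicate 2 was.

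**Figure D2:**
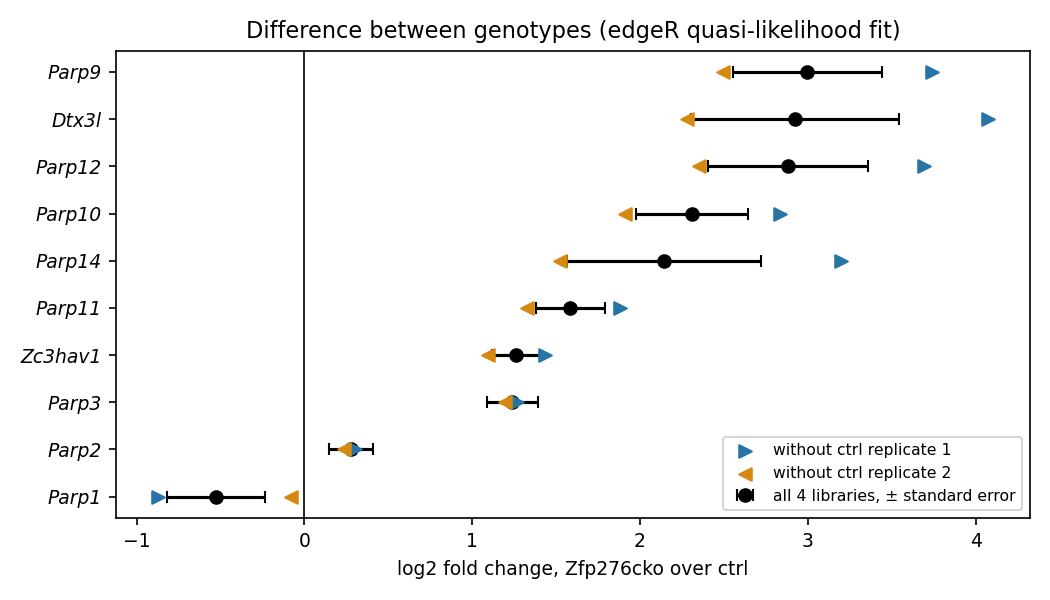
Log2 fold change of each gene between Zfp276cko and ctrl cells (horizontal axis; black points with bars of 1 standard error, all 4 libraries), with triangles for the values without ctrl replicate 1 (blue) or ctrl replicate 2 (orange). Dtx3l spans 2.28 to 4.08 between the triangles, whereas Parp3 spans only 1.20 to 1.27 and Parp1 reaches from -0.87 to -0.08.

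The constitutive genes did not move as a group. Parp1, the principal sensor of DNA strand breaks, had 6802 and 11884 normalized counts in ctrl against 6533 and 6436 in Zfp276cko cells. The Zfp276cko values lay just below ctrl replicate 1 and far below ctrl replicate 2, so that the log2 fold change of -0.53 ± 0.29 (SE, adjusted p = 0.465) depended on the ctrl library. With ctrl replicate 2 left out the value shrank to -0.08, whereas leaving out ctrl replicate 1 took it to -0.87. Parp2, which shares the repair of single-strand breaks with Parp1, had 663 and 639 normalized counts in ctrl against 847 and 729 in Zfp276cko cells. The log2 fold change was 0.28 ± 0.13 (SE, adjusted p = 0.408), and DESeq2 gave 0.26 with an adjusted p of 0.666. It was 0.30 or 0.24 when ctrl replicate 1 or 2 was omitted, in each case under the threshold of 0.6 for a call.

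Parp3, which takes part in the repair of double-strand breaks, differed from the other constitutive genes. It had 189 and 181 normalized counts in ctrl against 437 and 436 in Zfp276cko cells. Within each genotype the replicates were nearly equal, and the genotypes did not overlap. The means of 185 ± 5.38 (SD, n = 2) and 437 ± 0.424 (SD, n = 2) gave a log2 fold change of 1.24 ± 0.15 (SE, adjusted p = 0.117 from edgeR and 1.68e-05 from DESeq2). The choice of ctrl library moved this value little, with log2 values of 1.27 if ctrl replicate 1 and 1.20 if ctrl replicate 2 was omitted. Rrp9, which overlaps Parp3 on the opposite strand, had 597 and 623 normalized counts in ctrl against 554 and 527 in Zfp276cko cells and so differed in the other direction.

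For a comparison between genes, CPM were divided by the length of the annotated exons in kb. In ctrl cells Parp1 stood apart at 54.4 and 94.99 CPM per kb in replicates 1 and 2. The other 9 genes lay between 1.39 and 8.95, in the order of means Parp2, Zc3hav1, Parp14, Parp12, Parp11, Parp9, Dtx3l, Parp10 and Parp3. Only 1 of the 9 pairs of neighbours in this order, Parp1 and Parp2, had libraries that did not overlap. In Zfp276cko cells all 9 pairs were separate. Parp1 remained first at 52.2 and 51.4 CPM per kb, followed by Parp12 at 41.0 and 44.6, Parp9 at 30.9 and 31.2, Parp14 at 25.9 and 26.1, and Dtx3l at 23.0 and 23.8. Zc3hav1 (17.3 and 16.4), Parp11 (12.6 and 12.8) and Parp10 (12.1 and 12.2) came next. Parp2 moved from the second place to the ninth at 9.88 and 8.496, and Parp3 stayed last at 4.999 and 4.992. With the longest transcript as the length, Parp11 and Zc3hav1 changed places in Zfp276cko cells, as did Parp2 and Parp10, and in ctrl cells Parp11 moved ahead of Parp14 and Parp12.

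**Figure D3:**
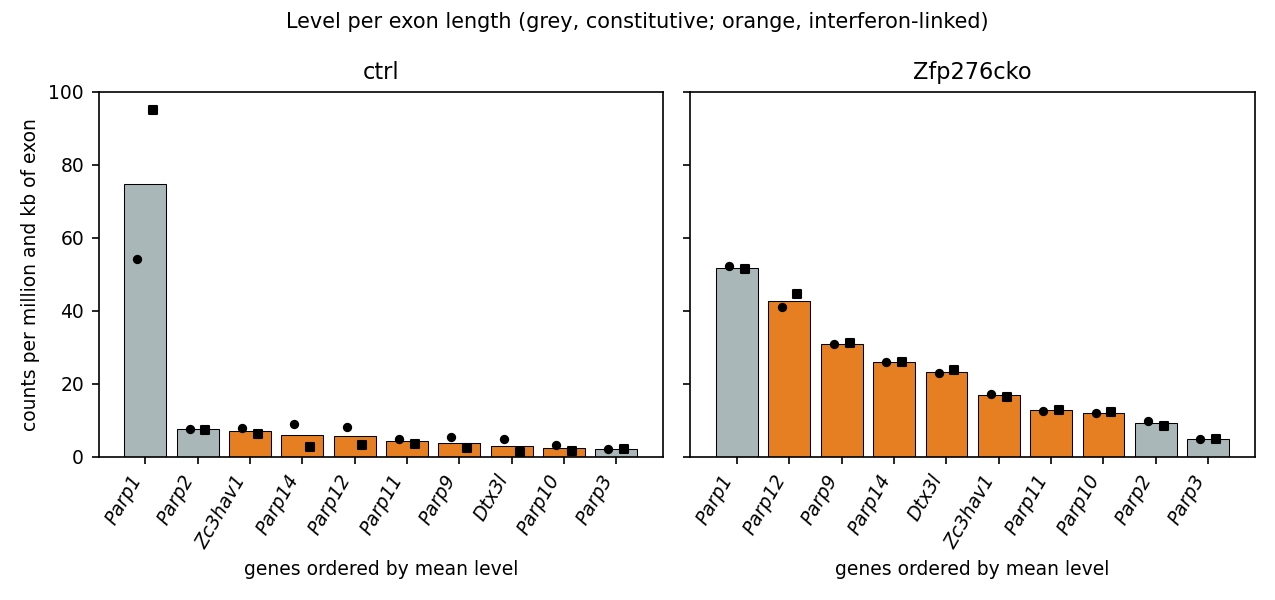
Level of each gene in CPM per kb of exon in ctrl (left) and Zfp276cko cells (right), with bars for the mean of 2 libraries, points for each library, and genes ordered by the mean. Parp1 alone exceeds the rest in ctrl, whereas 4 interferon-linked genes lie above 20 in Zfp276cko cells.

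Added up per length, the interferon-linked genes made 43.5 and 21.3 CPM per kb in ctrl replicates 1 and 2 and 163 and 167 in the Zfp276cko replicates. The constitutive genes made 64.3 and 105 in ctrl against 67.1 and 64.9 in Zfp276cko cells. Their share of the sum over the 10 genes was accordingly different. The interferon-linked genes contributed 40.4% and 16.9% in ctrl against 70.8% and 72.0% in Zfp276cko cells, while Parp1 alone contributed 50.4% and 75.5% in ctrl against 22.7% and 22.2% in Zfp276cko cells. These shares describe transcripts and carry no test.

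Genes with the most similar profile were sought for the 3 neighbours on chromosome 16. Log2 CPM were centred on the mean of each gene over the 4 libraries, and the distance to 14300 other genes was measured. Dtx3l was closest to Irgm1, an interferon-inducible GTPase (distance 0.049 on the log2 scale), followed by Samd9l (0.077) and Trim34a (0.171). The nearest to Parp9 was Parp12, at a distance of 0.140, and then came Vnn3 (0.175) and Cmpk2 (0.177). For Parp14 they were Lgals9 (0.124), Klf2 (0.210) and Uba7 (0.210), of which Uba7 encodes the activating enzyme for Isg15. The log2 fold changes of these 9 genes lay between 1.93 (Uba7) and 3.14 (Cmpk2). Parp9 was nearer to Parp12 on chromosome 6 (0.140) than to its head-to-head partner Dtx3l (0.397). With 4 libraries these distances rest chiefly on 2 quantities, the gap between genotypes and the gap between ctrl replicates. Zc3hav1 and Parp3 were also close to each other, at 0.197.

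Most other genes of ADP-ribosylation passed no test. Among 7 further ADP-ribosyltransferases (Parp4, Parp6, Parp8, Parp16, Tiparp, Tnks and Tnks2), the median log2 fold change was -0.07 compared with 1.86 over the 10 genes, with a range from -0.27 to 0.45. By the quasi-likelihood test at unadjusted p or by DESeq2, 0 of these 7 were past the thresholds in either direction. Tiparp, a transferase induced by the aryl hydrocarbon receptor, had 1267 and 1569 normalized counts in ctrl against 1402 and 1637 in Zfp276cko cells, which overlap. The tankyrases Tnks and Tnks2, with log2 fold changes of -0.23 and -0.27, lay below both ctrl libraries without passing the test. Of 7 listed genes for the removal of ADP-ribose, 0 were past the thresholds in any of these tests, and the median was -0.08. Parg, which degrades the chains, had 1350 and 1367 normalized counts in ctrl against 1285 and 1290 in Zfp276cko cells. Macrod2, a hydrolase of single units, had the largest difference there with a log2 fold change of -0.43 ± 0.16 (SE, adjusted p = 0.330).

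For 9 partners of Parp1 in DNA repair, among them Xrcc1, Lig3 and Hpf1, the median log2 fold change was 0.03, the range was -0.27 (Polb) to 0.27 (Aptx), and 0 were past the thresholds at unadjusted p or with DESeq2. Of 5 other ubiquitin ligases of the deltex family or directed by ADP-ribose, 1 was past the thresholds at unadjusted p and by DESeq2. This was Dtx2, with 468 and 547 normalized counts in ctrl against 811 and 807 in Zfp276cko cells and a log2 fold change of 0.67 ± 0.13 (SE, adjusted p = 0.172 from edgeR and 0.0237 from DESeq2). Without ctrl replicate 1 its log2 fold change was 0.57, under the threshold of 0.6. Dtx1, Dtx3 and Dtx4 had log2 fold changes of 0.07, 0.16 and -0.21. Among 10 genes comprising the paralog and cofactors of Zc3hav1, Trim25 alone passed at unadjusted p and by DESeq2. Trim25, a ubiquitin ligase that assists Zc3hav1, had 1162 and 501 normalized counts in ctrl against 2732 and 2697 in Zfp276cko cells (log2 fold change 1.71, standard error 0.42, adjusted p = 0.207 from edgeR and 0.00152 from DESeq2). Omission of ctrl replicate 1 moved the log2 value of Trim25 to 2.44 and that of ctrl replicate 2 to 1.21. The paralog Zc3hav1l and the nuclease cofactor Khnyn stayed at 0.29 (adjusted p = 0.429) and 0.31 (adjusted p = 0.459) on the log2 scale.

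NAD, the substrate of all PARPs, is supplied chiefly by the salvage enzyme Nampt. Nampt had 3006 and 1919 normalized counts in ctrl against 3276 and 3371 in Zfp276cko cells, or a log2 fold change of 0.43 ± 0.24 (SE, adjusted p = 0.461). Of 7 genes of NAD synthesis, 6 were tested, with a median of 0.37, and 0 were past the thresholds at unadjusted p or with DESeq2. The seventh, Qprt, had at most 1 count in ctrl and 7 and 6 counts in Zfp276cko cells and did not pass the filter. In the list of 12 genes of interferon signalling, 7 were higher past the thresholds at unadjusted p (5.11% of all tested genes) and 6 by DESeq2 (3.05%), with a median log2 fold change of 1.66 that became 2.28 or 1.22 on omission of ctrl replicate 1 or 2. Ifnb1 of this list had 1 and 0 raw counts in ctrl against 28 and 26 in Zfp276cko cells, and stays above the median when ctrl is set to a floor of 3 counts per library. The receptor subunits Ifnar1 and Ifnar2 had log2 fold changes of -0.17 and -0.23 and overlapped between genotypes.

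Microglia survive to some extent in such cultures and express many interferon-inducible genes, so their markers are given beside the values above. All 14 microglial markers were counted in these libraries. Together they made 2536 and 1370 CPM in ctrl replicates 1 and 2 and 1920 and 2001 in the Zfp276cko replicates, so that the Zfp276cko sums fell between the ctrl sums. Their median log2 fold change was 0.11, and it came to 0.63 when ctrl replicate 1 was left out and to -0.31 when ctrl replicate 2 was. The sums of the interferon-linked genes were 270 and 131 CPM in ctrl against 941 and 959 in Zfp276cko cells, outside the ctrl range. In ctrl replicate 1, both sums were higher than in ctrl replicate 2. The single microglial markers did not all share this order. Cx3cr1, Aif1 (1248 against 3204 normalized counts) and Ptprc were lower in ctrl replicate 1. The others were higher there, among them Csf1r (11409 against 1850). Of the 14 markers, 3 lay above both ctrl libraries and 0 below both, where the shares of all genes were 26.4% and 24.8%. Ptprc, a marker of all leukocytes, had 3018 and 3101 normalized counts in ctrl against 5092 and 5264 in Zfp276cko cells, or a log2 fold change of 0.76 (adjusted p = 0.117 from edgeR and 1.07e-05 from DESeq2). Tmem119 had 418 and 293 in ctrl against 391.8 and 390.9 in Zfp276cko cells, and P2ry12 had 151 and 19.1 in ctrl against 55.2 and 84.2 in Zfp276cko cells. Astrocyte markers summed to 1456 and 1172 CPM in ctrl against 1298 and 1240 in Zfp276cko cells, with a median log2 fold change of 0.16. This median was -0.12 or 0.79 without ctrl replicate 1 or 2. Gfap, Slc1a2 and Aldoc were higher in ctrl replicate 1 and the other astrocyte markers lower. Neuronal markers summed to 668 and 970 in ctrl against 620 and 677 in Zfp276cko cells, mostly from Map2. All were lower in ctrl replicate 1, from Syt1 (33.2 against 874 normalized counts) to Map2 (14612 against 18853). Their median log2 fold change was 0.14, and -0.58 or 3.04 without ctrl replicate 1 or 2. Oligodendroglial markers were lower in Zfp276cko cells, with 9 of 11 below both ctrl libraries (24.8% of all genes) and a median log2 fold change of -0.86, which was -0.84 or -0.59 if ctrl replicate 1 or 2 was omitted. The part of any of these in the values of the 10 genes was not tested.

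**Figure D4:**
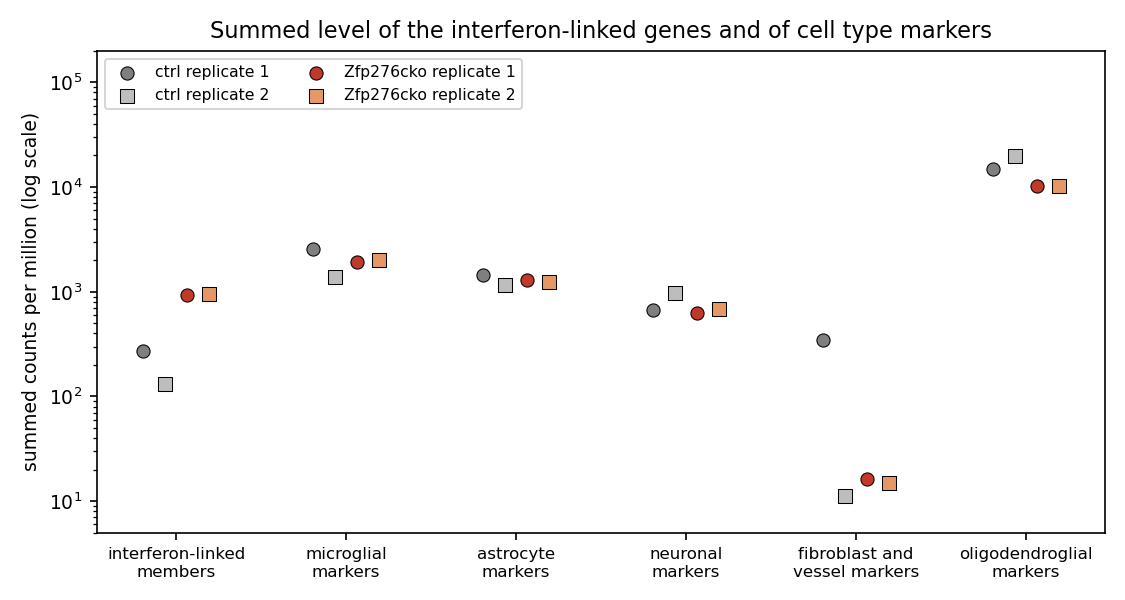
Summed CPM (logarithmic vertical axis) of the 7 interferon-linked genes and of 5 lists of cell type markers in each library. The Zfp276cko libraries exceed both ctrl libraries for the interferon-linked genes (941 and 959 against 270 and 131), whereas for microglial markers they lie between them.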

How the data were processed

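RNA-Seq counts of 2 ctrl and 2 Zfp276cko cultures were used. The authors prepared stranded mRNA libraries, sequenced single ends, mapped reads to mm10 with STAR 2.5.4a and deposited raw counts per gene symbol. The methods of the study name HTSeq with Ensembl genes for counting, whereas the submitters' processing notes list featureCounts 1.5.1. The strand setting is not given in the sources used here.

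Genes were filtered with filterByExpr, which left 15766 of 53465 entries, normalized with TMM and compared with edgeR 4.0.16 (quasi-likelihood test, Benjamini-Hochberg adjustment, R 4.3.3). The standard error is the log2 fold change divided by the square root of the F statistic. DESeq2 1.42.0 and limma 3.58.1 served as alternatives, where the study itself used DESeq2. Scripts were tested on simulated data. Positions and lengths came from GENCODE M21, whose version differs from the authors' annotation. Among the 10 genes, the lowest count in a library was 153, which gives a counting error of 8.08%. Counting errors do not cover the spread between cultures. Members and lists were chosen with earlier results of these data known. Named were the 10 genes, lists fixed by role (with the largest or called members as examples), genes near the 10, cell type markers and the 3 closest profiles of Parp14, Parp9 and Dtx3l. A few further genes of these lists were picked with their values in view.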

Additional observations from a re-analysis of the deposited data

How the results depend on the processing

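With 2 libraries per genotype, calls depended on how the spread was estimated. Of the 10 genes, 0 were called higher by edgeR's quasi-likelihood test, also with the size factors of DESeq2, without a filter on low counts, with at least 10 counts in every library and by limma voom. DESeq2, edgeR's likelihood ratio test and an unadjusted p each called 8. Over all genes they called 450 of 14754, 428 of 15766 and 806 of 15766 higher. Each library was also left out in turn, where the lone library was assumed to vary like the other genotype. These fits are therefore given by their log2 fold changes only. With the replicate number as a block, 0 genes were called, and the deviations of same-numbered libraries correlated at 0.0067 over 14324 genes, so that the numbers were not treated as pairs. Chosen after the data were seen, the quasi-likelihood test with its legacy setting off called 0. No log2 fold change of the 10 genes changed sign in any of these settings. The 9 genes above both ctrl libraries numbered 9 with the size factors of DESeq2 and without TMM. Without ctrl replicate 1, the log2 fold change of Parp1 was -0.87.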

Other observations

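Some genes that flank the 10 are given as values. Gpr62, which starts 11011 nt from Parp3 on the same strand, had 202 and 201 normalized counts in ctrl against 84.2 and 96.2 in Zfp276cko cells, or a log2 fold change of -1.16 ± 0.21 (SE, adjusted p = 0.155 with edgeR and 0.00557 from DESeq2), and thus differed opposite to Parp3. Plec, which shares exonic bases with Parp10 on the same strand, had 4110 and 4636 normalized counts in ctrl against 4716 and 4261 in Zfp276cko cells, where the genotypes overlapped. Grina, whose start is 3323 nt from that of Parp10, had a log2 fold change of 0.45 (adjusted p = 0.305). The antisense RNA 4930599N23Rik starts 124 nt from Parp12 on the opposite strand and had 13.1 and 3.38 normalized counts in ctrl against 20.8 and 30.1 in Zfp276cko cells. On the log2 scale the fold change of 1.63 had a standard error of 0.68 and an adjusted p of 0.362, so it did not pass the test.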
